A study of Mus musculus with 16 samples.

Results

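The kinesin genes are the 38 protein-coding genes of the mouse RefSeq annotation whose symbol starts with Kif followed by a digit, of 21883 protein-coding genes annotated on the autosomes, X and Y. They were sorted by the known role of the motor into 13 mitotic kinesins, 15 transport kinesins and 10 others. The binding of E2f4 and the extent of H3K4me2 and H3K27ac at their starts were read from 8 ChIP-seq peak lists of regenerating mouse liver, 1 list per library. KO livers carried Arid1a Fl/Fl with Alb-cre, in which the albumin promoter drives Cre in hepatocytes, and WT livers carried Arid1a Fl/Fl without Cre, so the floxed alleles were common to both genotypes. All livers came from mice of a C57/B6 and 129 mix at postnatal day 90 and were taken 40 h after partial hepatectomy. E2f4 was profiled in 2 libraries of each genotype, and H3K4me2 and H3K27ac in 1 library of each genotype and therefore with no replicate check. The labels describe frozen liver tissue from which hepatocytes were isolated after fixation, and they do not say whether the 2 E2f4 libraries of a genotype came from separate animals.

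Kinesins are motor proteins that use ATP to walk along microtubules or to shorten them. A mitotic set builds the spindle, moves and aligns chromosomes and organises the midzone where the cell divides, and its genes are classically transcribed late in the cell cycle. A transport set carries vesicles, organelles and ciliary components in cells that need not divide. E2f4 is a DNA-binding subunit of the DREAM complex, whose E2F subunits recognise E2F sites and whose MuvB core recognises a short element called the cell cycle genes homology region (CHR). DREAM is known for holding cell cycle genes in check in quiescent cells, and hepatocytes leave quiescence after partial hepatectomy. Arid1a belongs to SWI/SNF, a complex that moves nucleosomes.

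The promoter windows of 6 kinesin genes with an E2f4 summit at the start, and of 1 without, are shown because the position of short words in them is followed through the E2f4 results. Each window holds 300 bases, 250 before the annotated start and 50 from it onward, written 5′ to 3′ in the direction of the gene, from RefSeq on build GRCm38.p6 (the coordinates of mm10). Capitals mark exact matches, on either strand, to an E2F word, a CHR word or CCAAT. The E2F word was TTCCCGC, and the spellings TTGGCGC as well as TTCGCGC and also the spelling TTGCCGC were counted with it. The CHR word was TTTGAA, and the spelling TTCGAA was counted with it. Kif23, the centralspindlin motor of the midzone, lies at chr9:61946750-61947049, minus strand. Kif20b, a motor of late cytokinesis, lies at chr19:34922108-34922407, plus strand. Kif11, which slides spindle microtubules apart, lies at chr19:37376132-37376431, plus strand. Kif15, a second motor that keeps the spindle bipolar, lies at chr9:122950831-122951130, plus strand. Kif18a, which dampens chromosome movement on the metaphase plate, lies at chr2:109280488-109280787, plus strand. Kif24, a centriolar microtubule depolymerase that restrains cilium formation, lies at chr4:41464799-41465098, minus strand. Kif3b, a subunit of the kinesin-2 motor of cilia and vesicles with no E2f4 summit in any library, lies at chr2:153291166-153291465, plus strand.
Kif23: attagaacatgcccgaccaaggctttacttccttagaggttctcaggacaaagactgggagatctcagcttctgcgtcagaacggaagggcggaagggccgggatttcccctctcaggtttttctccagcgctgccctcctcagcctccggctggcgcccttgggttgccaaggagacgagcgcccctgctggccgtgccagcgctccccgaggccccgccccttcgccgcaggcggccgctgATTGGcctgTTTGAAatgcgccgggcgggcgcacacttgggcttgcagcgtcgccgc
Kif20b: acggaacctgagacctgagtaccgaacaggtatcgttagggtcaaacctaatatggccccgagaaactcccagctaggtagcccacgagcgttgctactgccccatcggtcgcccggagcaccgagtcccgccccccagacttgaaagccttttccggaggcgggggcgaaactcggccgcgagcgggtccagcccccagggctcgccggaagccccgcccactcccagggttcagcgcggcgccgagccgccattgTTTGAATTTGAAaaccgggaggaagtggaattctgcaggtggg
Kif11: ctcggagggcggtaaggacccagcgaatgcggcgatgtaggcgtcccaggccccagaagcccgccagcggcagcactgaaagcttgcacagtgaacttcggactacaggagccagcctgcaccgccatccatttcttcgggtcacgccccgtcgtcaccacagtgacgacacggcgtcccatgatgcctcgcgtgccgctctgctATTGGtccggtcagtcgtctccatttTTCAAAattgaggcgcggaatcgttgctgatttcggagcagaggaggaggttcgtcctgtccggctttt
Kif15: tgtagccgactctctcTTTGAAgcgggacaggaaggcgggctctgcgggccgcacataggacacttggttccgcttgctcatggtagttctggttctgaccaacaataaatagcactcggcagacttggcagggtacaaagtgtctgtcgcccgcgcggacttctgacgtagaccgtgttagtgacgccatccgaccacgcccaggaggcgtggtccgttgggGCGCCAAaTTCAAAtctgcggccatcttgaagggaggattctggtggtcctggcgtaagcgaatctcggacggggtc
Kif18a: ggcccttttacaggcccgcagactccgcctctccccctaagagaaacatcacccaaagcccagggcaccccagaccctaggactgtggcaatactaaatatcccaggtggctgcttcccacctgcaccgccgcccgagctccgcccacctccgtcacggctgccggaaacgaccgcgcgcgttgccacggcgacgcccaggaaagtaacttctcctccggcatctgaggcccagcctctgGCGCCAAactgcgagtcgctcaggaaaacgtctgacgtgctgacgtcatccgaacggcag
Kif24: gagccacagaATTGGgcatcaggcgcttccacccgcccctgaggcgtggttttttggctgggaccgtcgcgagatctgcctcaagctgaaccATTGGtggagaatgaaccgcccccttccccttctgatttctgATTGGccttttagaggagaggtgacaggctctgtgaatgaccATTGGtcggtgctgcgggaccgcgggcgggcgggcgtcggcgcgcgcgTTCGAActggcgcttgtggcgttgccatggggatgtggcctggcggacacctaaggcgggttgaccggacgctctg
Kif3b: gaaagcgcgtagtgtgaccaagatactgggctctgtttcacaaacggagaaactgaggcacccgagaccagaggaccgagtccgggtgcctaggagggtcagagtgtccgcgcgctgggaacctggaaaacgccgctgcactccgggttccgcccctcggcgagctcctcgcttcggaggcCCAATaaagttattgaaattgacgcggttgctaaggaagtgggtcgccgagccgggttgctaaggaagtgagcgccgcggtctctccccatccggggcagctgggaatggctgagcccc
Kif23, Kif20b, Kif11 and Kif15 carried a CHR word close to the start (TTTGAA, read as TTCAAA on the opposite strand in Kif11 and in the nearer match of Kif15). Kif24 carried the other CHR word, TTCGAA. Kif18a had an E2F word and no CHR word, and Kif3b had neither.

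The E2f4 lists held 287 and 683 peaks in the KO libraries, against 1791 and 1058 peaks in the WT libraries. The mean was 485 ± 280 peaks in KO and 1425 ± 518 peaks in WT (SD, n = 2 each), so KO held 34.0% of the WT number. An exact two-sided permutation test over the 4 libraries gave p = 0.333, the smallest value that 6 assignments allow. The files hold no read counts, so depth is unknown, and a list's length may follow depth and enrichment as well as binding. The H3K4me2 lists held 73042 regions in KO and 66832 in WT, and the H3K27ac lists 54652 in KO and 63321 in WT. In chromatin from whole samples, fewer cells carrying a mark and less of it per cell cannot be told apart. All 6 hepatocyte marker genes carried H3K4me2 and H3K27ac in KO and in WT, with 49663 bp of H3K4me2 in KO and 51314 bp in WT, and 56425 bp of H3K27ac in KO and 53650 bp in WT. Lymphocyte markers carried 1704 bp of H3K4me2 in KO and 15067 bp in WT (1 of 5 covered in KO and 4 of 5 in WT), with Cd2, Cd3e and Cd79b at 0 in KO, and 4019 bp of H3K27ac in KO and 2740 bp in WT. Endothelial markers carried 27744 bp of H3K4me2 in KO and 18483 bp in WT, and 26132 bp of H3K27ac in KO and 32209 bp in WT. Stellate cell markers carried 14831 bp of H3K4me2 in KO and 6495 bp in WT, and 5775 bp of H3K27ac in KO and 13900 bp in WT. Summed over the endothelial and over the stellate cell markers, then, H3K4me2 was longer and H3K27ac shorter in KO, although Stab2 had 7345 bp of H3K27ac in KO and 7325 bp in WT. Macrophage markers summed to 8884 bp of H3K4me2 in KO and 7786 bp in WT, and to 12124 bp of H3K27ac in KO and 12242 bp in WT. Their H3K4me2 directions were mixed. Marco (2092 bp in KO and 0 in WT) and Csf1r (4170 bp in KO and 3331 bp in WT) were longer in KO. Adgre1 (1224 bp in KO and 2134 bp in WT) and Clec4f (1398 bp in KO and 2321 bp in WT) were shorter. Cholangiocyte markers summed to 4055 bp of H3K4me2 in KO and 4447 bp in WT, with Krt19 and Krt7 at 0 in both, and to 0 bp of H3K27ac in KO and 1864 bp in WT. No marker gene of any list had an E2f4 summit, and the part of these other cell types in the results on the marks was not tested.

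E2f4 summits lay at the starts of most mitotic kinesins and of few other kinesins. A summit within 1000 bp of the start was found for 5 of 13 mitotic kinesins in KO replicate 1, 9 in KO replicate 2, and the same 9 in each WT library. Over all protein-coding genes the share was 1.12% in KO replicate 1, 3.19% in KO replicate 2, 6.54% in WT replicate 1 and 4.62% in WT replicate 2. Of the 15 transport kinesins, 1 had a summit, Kif13b, in all 4 libraries. Of the 10 other kinesins, 1 had a summit, Kif24, in KO replicate 2 and both WT libraries. Kif14, a motor of cytokinesis, and Kif2c, which shortens microtubules at centromeres, each have a RefSeq start that lies inside the gene, and their summits lay at the outer end, 1484 to 1507 bp and 3835 to 3854 bp upstream of that start. Counting a summit within 1000 bp of either outer end as well brought the mitotic kinesins to 7 of 13 in KO replicate 1 and to 11 of 13 in each of the other 3 libraries, and left transport and other kinesins at 1 each. The matching shares over all genes were 1.17% in KO replicate 1, 3.26% in KO replicate 2, 6.62% in WT replicate 1 and 4.72% in WT replicate 2. The 2 mitotic kinesins without a summit in any library were Kif2a and Kif2b, microtubule depolymerases of spindle poles and kinetochores, and Kif2b carried neither histone mark.

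**Figure D1:**
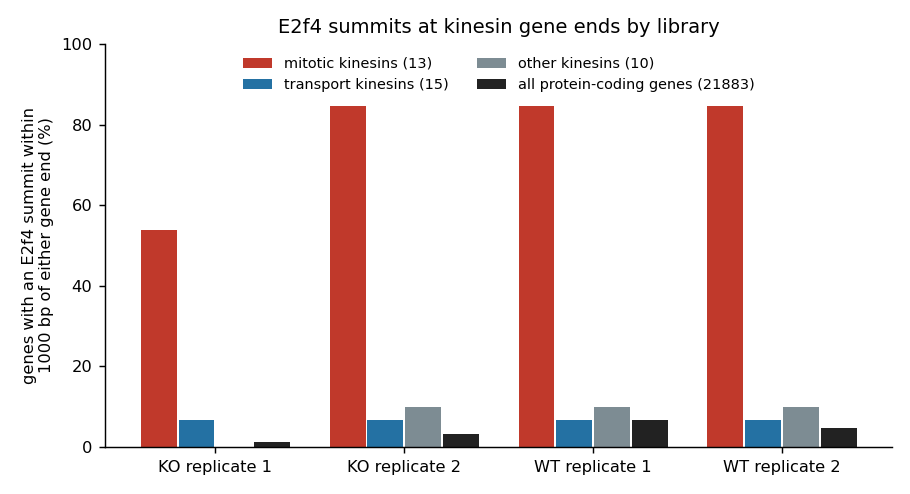
Share of kinesin genes with an E2f4 summit within 1000 bp of either outer end of the gene (y axis, %) in each E2f4 library (x axis), with bars for 13 mitotic, 15 transport and 10 other kinesins and for all 21883 protein-coding genes. The mitotic bar stands for 7 of 13 genes in KO replicate 1 and for 11 of 13 in the other 3 libraries, while the bar for all genes lies between 1.17% and 6.62%.

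No kinesin gene had a summit called in both WT libraries and in neither KO library. The pattern was seen at the starts of 231 genes, 1.06% of all genes, a share too low for its absence among 38 genes to be a result. It is possible only with a summit in both WT libraries, which 824 of all genes and 11 kinesins had at the start. A summit in either KO library was present at the start of 9 of 13 mitotic kinesins, beside 3.21% of all genes, and a summit in both WT libraries at the start of the same 9, beside 3.77%. A summit in both KO libraries was present at 5 of 13, beside 1.1%. Of the 11 kinesin genes with a summit at the start in both WT libraries, 6 had one in KO replicate 1 and 11 in KO replicate 2. Among all 824 genes whose summit was called in both WT libraries, the shares were 29% in KO replicate 1 and 71.7% in KO replicate 2. The 824 were not matched to the kinesins by rank. The median rank of the mitotic kinesins lay at 9.32% of the list in WT replicate 1 and at 9.74% in WT replicate 2. Counting outer ends, 13 kinesins had a peak in both WT libraries, and the 5 of them without a peak in KO replicate 1, the shortest list, were Kif20b, Kif4, Kif11, Kif18a and Kif24. These 5 ranked between 103 and 665 in the WT lists, and the 8 that had a peak in KO replicate 1 ranked between 3 and 335 there.

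Ranks by the authors' −log10 q-value are given here in the order KO replicate 1 and 2, then WT replicate 1 and 2, and since the lists differ in length, ranks of different lists show no change. Kif20a, which brings the chromosomal passenger complex to the midzone, ranked 2 and 3 in KO and 9 and 3 in WT. It was thus among the strongest 9 peaks of every list. It lies on chromosome 18, shares its start region with Brd8, and its summit lay 290 to 303 bp inside the gene, so the peak cannot be given to either gene. Kif2c ranked 34 and 9 in KO and 7 and 40 in WT. Kif15 ranked 27 and 62 in KO and 20 and 102 in WT, with 1110059G10Rik starting within 1000 bp of the summit. Kif14 ranked 154 and 82 in KO and 51 and 73 in WT. The ranks of Kif14 and Kif2c belong to the summits at the outer end.

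The other chromosome and midzone motors follow. Kif18b, a motor of growing microtubule ends, ranked 126 and 30 in KO and 55 and 34 in WT. Kif22, a chromokinesin that pushes chromosome arms away from the poles, ranked 147 and 58 in KO and 167 and 77 in WT. Kif23 ranked 74 and 175 in KO and 224 and 170 in WT. These 3 genes had a peak in all 4 libraries. In KO replicate 2 alone of the KO libraries, Kif20b ranked 154, against 120 and 103 in WT. Kif4, a chromokinesin that also shapes the midzone and whose start lies near that of Pdzd11, ranked 193 in KO replicate 2 and 182 and 173 in WT. Kif11, the motor on which spindle bipolarity first depends, ranked 212 in KO replicate 2 and 362 and 665 in WT. Kif18a ranked 479 in KO replicate 2 and 626 and 494 in WT, the lowest placing of these 13 genes in KO replicate 2 and in WT replicate 1, and its summits also lie in Mettl15. Of the 2 members outside the mitotic class, Kif13b, a motor of membrane vesicles and polarity proteins, ranked 163 and 274 in KO and 335 and 213 in WT. Kif24 ranked 135 in KO replicate 2 and 124 and 281 in WT, and its start lies close to that of Nudt2.

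**Figure D2:**
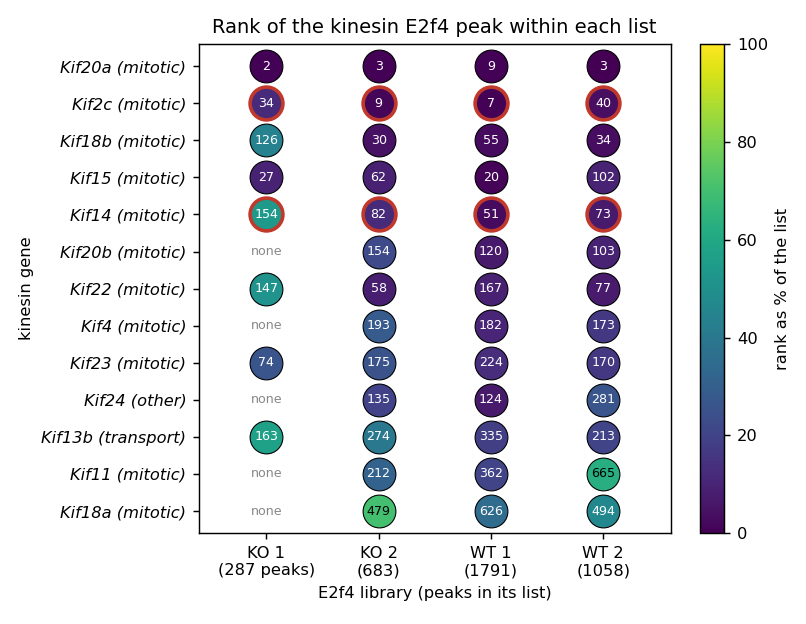
Rank of the peak at each of 13 kinesin genes (rows) within each E2f4 list (columns, with the number of peaks in the list), written in the circle, with the colour giving the rank as a percentage of the list and a red outline marking the 2 genes whose summit lies at the outer end and not at the RefSeq start. The 8 genes with a circle in every column include Kif20a at ranks 2 to 9, and 5 genes have none in KO replicate 1.

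The summits were placed alike in every library. The 13 kinesin genes had 47 peaks at the start or the outer end, and the summits of a gene fell within 9 to 44 bp of each other over its libraries, with a median range of 22 bp. Apart from Kif20a, no summit was more than 97 bp from the outer end of its gene. Distances to the start were taken at kinesins with an annotated start and a summit within 1000 bp of it, which leaves out Kif14 and Kif2c. The median distance from summit to start was 10.5 bp in KO replicate 1 (4 genes) and 19 bp in KO replicate 2 (9 genes). It was 12 bp in WT replicate 1 and 33.0 bp in WT replicate 2 (9 genes each). Over all genes with an annotated start and a summit within 1000 bp of it, the medians were 69.0 and 92.5 bp in the KO libraries and 105.0 and 102.5 bp in the WT libraries. In each of the 4 libraries the kinesin median was thus below the median over all genes. Inside the gene bodies there was 1 further summit in all 4 lists, in Kif26b, 58464 bp from the nearest end of that gene, at chr1:178874330-178874496, ranked 1575 in WT replicate 1 and called in no other library.

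The CHR word was common in mitotic kinesin promoters and had no match in the transport kinesin promoters that could be searched. Promoter windows were in the RefSeq table for 31 of the 38 members, and they held a CHR word in 9 of 12 mitotic kinesins, 0 of 11 transport kinesins and 3 of 8 others. Kif13b, the only transport kinesin with an E2f4 summit, and the mitotic Kif20a had no window and were not searched. Of 21237 promoter windows of all protein-coding genes, 17.6% held a CHR word, as did 32.5% of the 681 windows of genes whose summit was called in both WT libraries. E2F words were found in 2 of 12 mitotic kinesins (Kif15 and Kif18a), 1 of 11 transport kinesins (Kif16b) and 1 of 8 others (Kif6). The shares were 12.1% of all promoter windows and 42.4% of those with a summit in both WT libraries. CCAAT was found in 7 of 12 mitotic, 3 of 11 transport and 4 of 8 other kinesins, beside 38.2% of all promoter windows and 55.4% of those with a summit in both WT libraries. A match is a run of letters and not a shown binding site, and the absence of a word says only that these letters are not in this window.

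Among the 9 kinesins with both a window and a summit at the start, 8 had a CHR word and 2 an E2F word, and in these 8 a CHR word lay within 52 bp of every summit. Positions are given for the first base of the word, with the start base counted as 0. The word began at position 2 in Kif23, 3 in Kif18b, 7 and 13 in Kif20b (a direct repeat) and 19 in Kif4, all just inside the transcript. It began 19 bp before the start in Kif11 and in Kif15, 17 bp before it in Kif22 and 26 bp before it in Kif24. Over 28 peaks at the 8 genes, the nearest CHR word lay inside the peak in 28 and was 0 to 52 bp from the summit, with a median of 12 bp. The peaks of a gene were set against the same words, so the 28 are not separate cases. These distances were not measured at other genes with a summit and a CHR word. Whether such closeness is particular to kinesins was therefore not tested. In Kif23 the word was 4 and 0 bp from the KO summits and 4 and 18 bp from the WT summits. In Kif11 it was 0 bp from the KO replicate 2 summit and 0 and 14 bp from the WT summits. In Kif15 it was 15 and 11 bp from the KO summits and 2 and 1 bp from the WT summits, and the E2F word beside it was 22 and 3 bp from the KO summits and 9 and 1 bp from the WT summits. The largest distances, 52 bp in Kif22 and 47 bp in Kif24, were both in a KO library.

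Kif18a was the exception among these 9, with an E2F word 10 bp before the start. That word was 27 bp from the KO replicate 2 summit and 47 and 45 bp from the WT summits. The windows of Kif14 and Kif2c also held a CHR word, 228 and 103 bp before the RefSeq start, but their summits lay outside the windows, so these words were not compared with them. Among members without a summit at the start, Kif26b and Kif27 held CHR words and Kif2a, a mitotic kinesin, held none of the words.

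**Figure D3:**
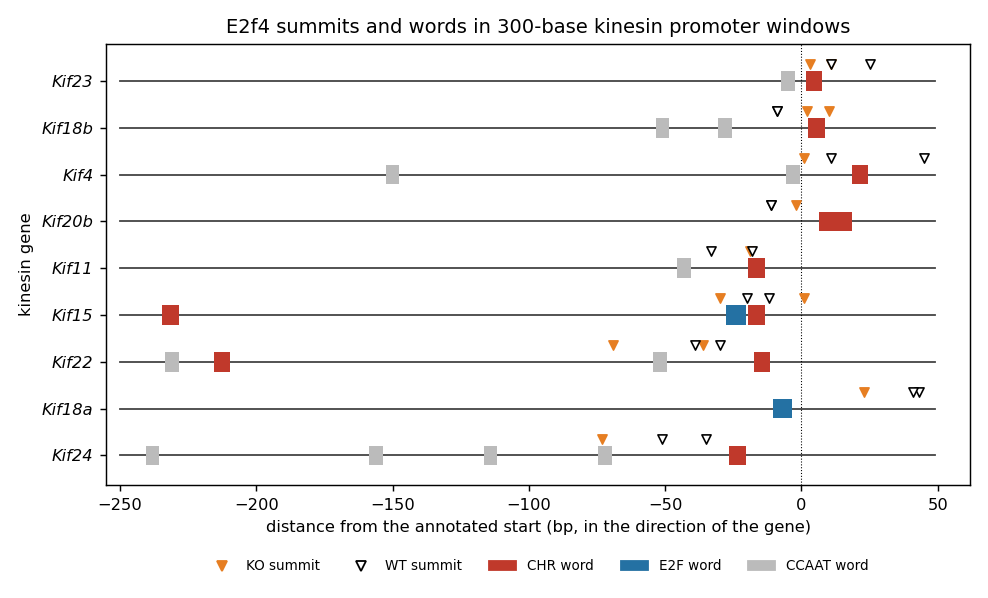
Positions of CHR, E2F and CCAAT words (coloured blocks) and of E2f4 summits (filled triangles for KO libraries, open triangles for WT libraries) in the promoter windows of the 9 kinesins with a summit at an annotated start, with the distance from the start in bp on the x axis and the dotted line at the start. In 8 of the 9 rows the summits of both genotypes lie within 52 bp of a CHR word, and the Kif18a row has an E2F word in its place.

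The genes that act with the 2 classes of motor were set beside them from lists of 20 genes each. Of 20 spindle and midzone partners, 18 had an E2f4 summit at the start in either KO library, 9 in both KO libraries and 16 in both WT libraries. The shares of all genes were 3.21%, 1.1% and 3.77%. Of 20 transport adaptors and dynein subunits, 0 had a summit in any library, beside 7.56% of all genes. The partners with the best mean WT rank were Birc5, Incenp and Aurkb, members of the chromosomal passenger complex that Kif20a carries, and Ect2, which the centralspindlin of Kif23 brings to the midzone. Birc5 ranked 39 and 17 in KO and 18 and 22 in WT. Aurkb ranked 33 and 21 in KO and 25 and 50 in WT. Incenp ranked 40 and 39 in KO and 27 and 44 in WT. Ect2 ranked 37 and 16 in KO and 46 and 32 in WT. A further 2 motors of the spindle, Cenpe and Kifc1, whose symbols the rule leaves out, ranked 180 and 186 in KO replicate 2 and between 195 and 215 in the WT lists, and had no peak in KO replicate 1. Of 17 promoter windows of the spindle partners 13 held a CHR word and 2 an E2F word, and of 16 windows of the transport adaptors 2 held a CHR word and 1 an E2F word, beside 17.6% and 12.1% of all promoter windows.

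H3K4me2, a mark of active and poised promoters and enhancers, was present at nearly all kinesin starts. It covered part of the 10001 bp window around the start in 36 of 38 kinesin genes in KO and in 36 in WT, beside 72.7% of all genes in KO and 71.6% in WT. The exceptions in both genotypes were Kif2b and Kif12. H3K27ac, a mark of active promoters and enhancers, was found at 29 of 38 in KO and 27 in WT, beside 61% of all genes in KO and 61.2% in WT. Of the mitotic kinesins 12 of 13 carried H3K27ac in KO and 11 in WT, and of the transport kinesins 12 of 15 carried it in KO and 11 in WT. Kif1a, Kif5c and Kif17, motors best known from neurons, carried H3K4me2 and no H3K27ac in either genotype, as did Kif6 and Kif19a, a motor that limits the length of cilia. All 47 kinesin E2f4 summits lay inside H3K4me2 regions of both genotypes and inside H3K27ac regions of KO. The WT H3K27ac regions held all of them but the 4 of Kif14. The 47 are repeat calls at 13 genes and not separate cases. Overlap with the marks was also usual beyond kinesins. Of the 824 genes that both WT lists share, 817 had H3K4me2 and 795 had H3K27ac at the WT replicate 1 summit. The overlap therefore does not set kinesins apart from other genes with E2f4.

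H3K27ac covered a longer length in KO than in WT at the start of 11 of 12 mitotic kinesins that carried it. The median length was 1838 bp in KO and 1317 bp in WT, and the median difference, KO minus WT, was 357 bp. Over all 13847 genes with H3K27ac, 52.7% were longer in KO, with medians of 2472 bp in KO and 2511 bp in WT and a median difference of 37 bp. Among the 819 genes with H3K27ac and an E2f4 summit in both WT libraries, 69.5% were longer in KO, with medians of 2370 bp in KO and 2030 bp in WT and a median difference of 279 bp. Of 12 transport kinesins, 5 were longer in KO, with medians of 2928 bp in KO and 2896 bp in WT and a median difference of -54.5 bp. With 1 library per genotype, none of these differences has a replicate check.

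The mitotic kinesins differed widely among themselves in the size of the H3K27ac difference. Kif20a had 3837 bp in KO and 2130 bp in WT, a difference of 1707 bp, around the start region it shares with Brd8. Of the KO length, 850 bp lay in a separate block with a −log10 q-value of 1.58 that did not cover the start. The block that covered the start had 2987 bp in KO and 2130 bp in WT, a difference of 857 bp. Kif14 had 1286 bp in KO and 0 bp in WT, where no region was called. Kif2c had 1791 bp in KO and 931 bp in WT, and Kif18a had 2156 bp in KO and 1337 bp in WT. These 4 genes had the widest differences of the class. Kif20b had 1923 bp in KO and 1377 bp in WT, Kif22 1941 bp in KO and 1557 bp in WT, and Kif15 1517 bp in KO and 1187 bp in WT. Kif4 had 1556 bp in KO and 1267 bp in WT, and Kif2a 1884 bp in KO and 1661 bp in WT. Kif11 had 1936 bp in KO and 1776 bp in WT, and Kif18b 1337 bp in KO and 1297 bp in WT. Of the Kif11 length in WT, 393 bp lay in a separate block with a −log10 q-value of 1.12 that did not cover the start. The Kif11 block that covered the start had 1936 bp in KO and 1383 bp in WT, a difference of 553 bp. Kif23, with 1056 bp in KO and 1152 bp in WT, was the member of the class with the shorter length in KO, but its difference of -96 bp was 1196 bp within 10000 bp and 1056 bp with a −log10 q-value threshold of 5. At that threshold its KO region, with a −log10 q-value of 5.10, was kept and its WT region, with 3.94, was dropped.

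A difference of 1000 bp or more in H3K27ac was reached by 3 kinesins that were longer in KO and by 2 that were shorter, beside 11.9% of all genes longer and 12.1% shorter. The 3 were Kif24, with 4352 bp in KO and 2070 bp in WT, and the mitotic Kif20a and Kif14. Kif20a reached that size only with its separate KO block counted. The region at Kif24 was a single block in each genotype, and Nudt2 starts within it. The 2 shorter ones belonged to the other kinesins. Kif9, a motor of motile cilia, had 942 bp in KO and 2183 bp in WT, close to the start of Klhl18, and the WT region ended before the annotated start while the KO region covered it. Kif26b, an atypical kinesin, had 0 bp in KO and 1040 bp in WT, in 2 blocks of 547 and 493 bp neither of which covered the start. Below that size, H3K27ac was called in KO alone at Kif3a (845 bp), Kif27 (722 bp) and Kif28 (163 bp), and in WT alone at Kif7 (714 bp), the ciliary-tip regulator of Hedgehog signalling. These were weak calls, with −log10 q-values of 1.74 at Kif3a, 2.51 at Kif27, 2.50 at Kif28 and 1.63 at Kif7. The lowest value in each H3K27ac list was 1.005. The share of all genes called in 1 genotype alone was not counted.

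**Figure D4:**
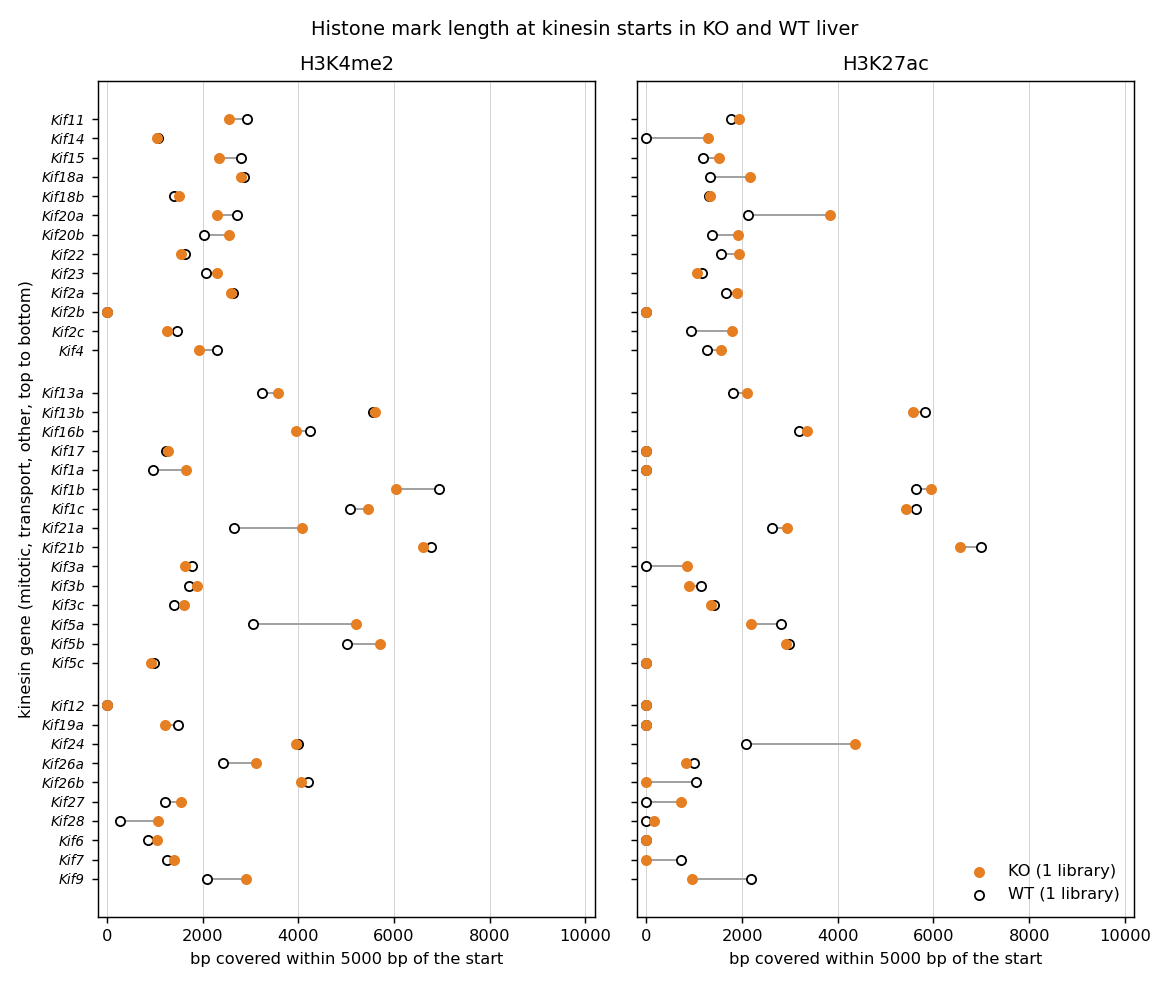
Length covered by H3K4me2 (left) and H3K27ac (right) within 5000 bp of the start of each kinesin gene, in bp on the x axis, with filled points for KO and open points for WT (1 library each) joined by a line, and genes grouped from top to bottom as mitotic, transport and other. The filled H3K27ac point lies to the right of the open one in 11 of 12 mitotic kinesins that carry the mark and in 5 of 12 transport kinesins.

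H3K4me2 did not show the same direction. It was longer in KO at 3 and shorter at 9 of 12 mitotic kinesins, beside 60.3% longer and 39.4% shorter over 16176 genes with the mark, and beside 46% longer and 53.8% shorter over the 824 genes with an E2f4 summit in both WT libraries. The class medians were 2300 bp in KO and 2189 bp in WT, and the median difference was -73.0 bp. The 3 longer ones were Kif20b with 2553 bp in KO and 2018 bp in WT, Kif23 with 2300 bp in KO and 2075 bp in WT, and Kif18b with 1504 bp in KO and 1408 bp in WT. The widest differences among the 9 shorter ones were at Kif15, with 2340 bp in KO and 2803 bp in WT, and at Kif20a, with 2300 bp in KO and 2712 bp in WT. Kif4 had 1915 bp in KO and 2303 bp in WT, and Kif11 had 2552 bp in KO and 2929 bp in WT. Kif2c had 1252 bp in KO and 1469 bp in WT. The remaining 4 differed by less than 100 bp: Kif22 had 1541 bp in KO and 1625 bp in WT, Kif18a 2805 bp in KO and 2867 bp in WT, Kif2a 2589 bp in KO and 2640 bp in WT, and Kif14 1039 bp in KO and 1058 bp in WT. At 9 of the 12 mitotic kinesins the length of H3K27ac was longer and that of H3K4me2 shorter in KO. The share of genes with both directions was not counted over all genes or over those with an E2f4 summit. Whether the combination is particular to mitotic kinesins was therefore not tested. The H3K4me2 direction depended on the window: within 10000 bp, 7 of the 13 mitotic kinesins were longer in KO, with Kif2a, Kif2c, Kif22 and Kif4 changing sign, and with both outer ends counted 6 were longer.

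Transport kinesins carried H3K4me2 over a longer length in KO at 10 of 15 genes, with medians of 3957 bp in KO and 3059 bp in WT and a median difference of 160 bp. Over all genes with the mark 60.3% were longer in KO and the median difference was 133 bp, so the transport kinesins lay near the share over all genes. A difference of 1000 bp or more was reached by 2 kinesins, both longer in KO, beside 11.9% of all genes longer and 5.99% shorter. Kif5a, a heavy chain of conventional kinesin, had 5207 bp in KO and 3059 bp in WT, over a start region shared with the dynactin gene Dctn2. Kif21a, a motor that restrains microtubule growth, had 4084 bp in KO and 2657 bp in WT. The H3K27ac lengths at these 2 genes differed in opposite directions, with 2186 bp in KO and 2819 bp in WT at Kif5a, and 2942 bp in KO and 2627 bp in WT at Kif21a. Kif13b, the transport kinesin with E2f4, had 5596 bp of H3K4me2 in KO and 5553 bp in WT, and 5577 bp of H3K27ac in KO and 5833 bp in WT. The other transport kinesins, Kif1b, Kif1c, Kif3c, Kif5b, Kif13a, Kif16b, Kif21b and Kif3b, carried both marks in both genotypes. Their differences ran from -906 bp (Kif1b) to 691 bp (Kif5b) for H3K4me2 and from -441 bp (Kif21b) to 318 bp (Kif1b) for H3K27ac. The Kif21b difference changed sign, to 180 bp within 1000 bp, 612 bp within 10000 bp, 51 bp with both outer ends counted and 3060 bp with a −log10 q-value threshold of 5. That of Kif1b was -9 bp within 10000 bp and -1780 bp with both outer ends counted. Of the other kinesins past 1000 bp for H3K27ac, Kif24 had 3949 bp of H3K4me2 in KO and 3983 bp in WT, Kif9 had 2895 bp in KO and 2082 bp in WT, and Kif26b had 4046 bp in KO and 4203 bp in WT. Kif26a, another atypical kinesin, had 3122 bp of H3K4me2 in KO and 2418 bp in WT, and 827 bp of H3K27ac in KO and 1001 bp in WT.

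The single region that holds the E2f4 summit was also measured in place of the window, in the same libraries. Directions at kinesins with a summit were the same, except for H3K4me2 at Kif18a. Its difference was -62 bp in the window and 4 bp in the region. At the 11 mitotic kinesins with a summit, the H3K27ac region was wider in KO at 10, with Kif23 the exception, beside 73.3% of 795 genes whose summit was called in both WT libraries. The H3K4me2 region was wider in KO at 4 and narrower at 7, beside 44.8% wider and 55% narrower of 817 such genes. At Kif13b the H3K27ac region was narrower in KO, with 8378 bp in KO and 10257 bp in WT. In the window within 5000 bp of the start, the spindle and midzone partners had longer H3K27ac in KO at 17 of 20 genes and shorter H3K4me2 at 15 of 20. The transport adaptors had longer H3K27ac in KO at 8 of 17 and shorter H3K4me2 at 6 of 19, near the shares over all genes. Those window shares were 52.7% longer for H3K27ac and 39.4% shorter for H3K4me2. Among genes with an E2f4 summit in both WT libraries they were 69.5% and 53.8%.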

How the data were processed

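The 16 samples are 8 immunoprecipitations, each with a deposited peak list, and 8 inputs, which were not used here. The submitters' processing notes list Bowtie2 2.2.3, Picard, MACS2 2.0.10.20131216, HOMER and mm10, with no role for any. Each list belongs to 1 library, per the labels. Each deposited list gives a peak's fold enrichment, a ratio that belongs to that peak, with −log10 p-values and −log10 q-values and a score. Within a list, the authors' −log10 q-value served for ranks and filters alone, the authors' fold was used for description only, and the deposited score was not used. For the inputs, their use in peak calling was not stated in those notes. Without counts in the lists the depth is unknown, and no interval can be given.

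Gene starts were taken by strand from RefSeq promoter records of assembly GRCm38.p6 (31 of 38 kinesins). Where a gene had several annotated starts, the one with more H3K4me2 within 2000 bp was used. For the other 7, the outer end with more H3K4me2 within 2000 bp was used. Over all genes, 1156 had no such record and no end that the marks decided, and summits were then sought at both ends. These choices favour starts that carry H3K4me2, in kinesins and in all genes alike. E2f4 was assigned to a gene by a summit no more than 1000 bp from that start, and mark length is the number of bp covered within 5000 bp of it. A length was called different at 1000 bp or more. Neighbours sharing a start both count. Peak numbers were compared by an exact permutation test, and all other results are counts without a test, because E2f4 had 2 libraries per genotype and each mark 1. Whether sites were exonic or intronic was not analysed here.

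The members, classes and lists were chosen with earlier results of these data known, and so were the tests and alternatives. The values of 1 cell type marker are not reported here. Every kinesin gene is named, with full values for mitotic kinesins, for others with a summit and for those past 1000 bp. The counting of summits and lengths was tested on simulated data, and that of words was not. Python 3.11.15, pandas 2.3.3, numpy 2.4.6, scipy 1.17.1 and matplotlib 3.10.9 were used. Windows, gene ends, q-value thresholds, list lengths, call sizes and left-out libraries were varied.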

Additional observations from a re-analysis of the deposited data

How the results depend on the processing

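The count of 9 mitotic kinesins with an E2f4 summit in both WT libraries stayed between 7 and 11 under every alternative run, 7 being the count when each list was limited to its 287 strongest peaks. The count in every KO library, 5, was 3 with a −log10 q-value threshold of 10, and ranged from 5 to 9 when 1 library was left out, with 9 without KO replicate 1. The count in any KO library, 9, ranged from 5 to 9 when 1 library was left out, with 5 without KO replicate 2. The count of transport kinesins with a summit in both WT libraries, 1, was 2 within 5000 bp and 0 with lists of equal length, where Kif13b fell outside the 287 strongest peaks of a WT list. H3K27ac was longer in KO at 10 to 12 mitotic kinesins in all alternatives. H3K4me2 was longer in KO at 3 mitotic kinesins, against 7 within 10000 bp and 6 with both outer ends counted, so its direction there depends on the window, and at 10 transport kinesins, against 6 within 1000 bp. Kinesins differing by the call size numbered 2 for H3K4me2, against 0 within 1000 bp, 6 with both outer ends, 5 with a −log10 q-value threshold of 5, 9 at a call size of 500 bp and 1 at 2000 bp. For H3K27ac they numbered 5, against 0 within 1000 bp, 10 within 10000 bp, 12 at 500 bp and 1 at 2000 bp. The cause of these changes was not tested. Measuring the region at the summit was chosen after seeing the data.

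The KO peak number of 34.0% of WT ranged from 20.1% to 47.9% when 1 library was left out. The labels give both genotypes replicates 1 and 2 but do not say that a number pairs libraries, and with the replicate number as a replicate block the exact permutation p was 0.5, the smallest that 2 pairs allow. Limits are the unknown depth, the 2 E2f4 libraries per genotype, and the single library per genotype for each mark. A shorter list and less binding cannot be told apart at this design.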
